A study of Mus musculus with 24 samples.

Results

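Hepatic expression of the enzymes of amino acid catabolism and of the urea cycle was followed in mice on a low-fat and a high-fat diet. A list of 40 genes was taken, and every probe set was used whose platform annotation lists exactly 1 gene symbol that is on the list. Of the 40 genes, 38 were matched, by 57 of the 45101 probe sets of the array, while Acmsd and Amt were not analysed here. The members cover the urea cycle (6 genes), tyrosine breakdown (4), tryptophan breakdown (4), methionine, homocysteine and choline-derived methyl groups (8), glycine and glyoxylate (2), proline and lysine (2), aminotransferases with glutamate dehydrogenase (5), and branched-chain amino acids with propionyl-CoA (7).

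The livers came from 18 male C57BL6J mice, 6 per group, that had been acclimated on a low-fat diet. For 4 weeks the LF group was given the low-fat diet, the HF group a high-fat diet labelled 45%, and the HF+P group that high-fat diet with 5% powder of propagules, the aerial tubers of Japanese yam. All groups were fasted for 16 h before the liver was taken, and the age of the mice is not given in the labels. RNA of each liver was hybridised to 1 Affymetrix array, which reads a gene through sets of short probes near the end of its transcript. The submitters processed the HF arrays in 2 runs, together with LF in one and with HF+P in the other, so that each comparison has its own 12 columns of values and both comparisons share the HF mice.

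Amino acids that are not used for protein are broken down mainly in the liver. Aminotransferases pass the amino group to glutamate and aspartate, glutamate dehydrogenase releases it as ammonia, and the urea cycle, which runs in the hepatocytes around the portal vein, turns ammonia and aspartate into urea. The remaining carbon skeletons feed glucose production, ketone bodies or the citric acid cycle, and in fasting the carbon of muscle protein reaches the liver by this route. Many of these enzymes are induced by glucagon and glucocorticoids and by a high protein intake.

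Levels of the members were high, except for Ass1. All 38 lay above the median level of the 18194 genes measured, from 7.56 for Ass1 to 14.4 for Bhmt in LF livers on the deposited scale, which was handled as log2. Ass1 was read by 1 probe set alone, since one that names Ass1 and a further gene was left out. The level of Ass1 lay close to the median of all genes, 7.30, while the next member, Nags, stood at 9.69. The tissue matched its label in its hepatocyte markers: 10 markers that are not members had mean levels of 12.2 to 14.9 in LF livers. Whether a difference in a piece of liver comes from fewer cells of a type or from less RNA per cell cannot be told apart. Between arrays the deposited values are close to identical, with an SD over the 12 columns whose median over all probe sets was 4.17e-06 for HF and LF and 4.27e-06 for HF+P and HF, so a difference of these values is not a fold change. Sizes are therefore given as the standardized difference, in pooled within-group SDs, with the correction of Hedges for small samples and a 95% interval, and values of single mice as the distance from the mean of the reference group in pooled SDs.

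Single mice stood apart in these genes. LF mouse 8 was the lowest LF mouse in 26 of the 38 members (68.4%, against 15.0% of all genes), HF+P mouse 3 was the lowest HF+P mouse in 28 (73.7%, against 17.2%), and HF+P mouse 4 was the highest HF+P mouse in 25 (65.8%, against 14.5%). The medians of the members, and the members whose sign turned, are given with and without these mice.

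**Figure D1:**
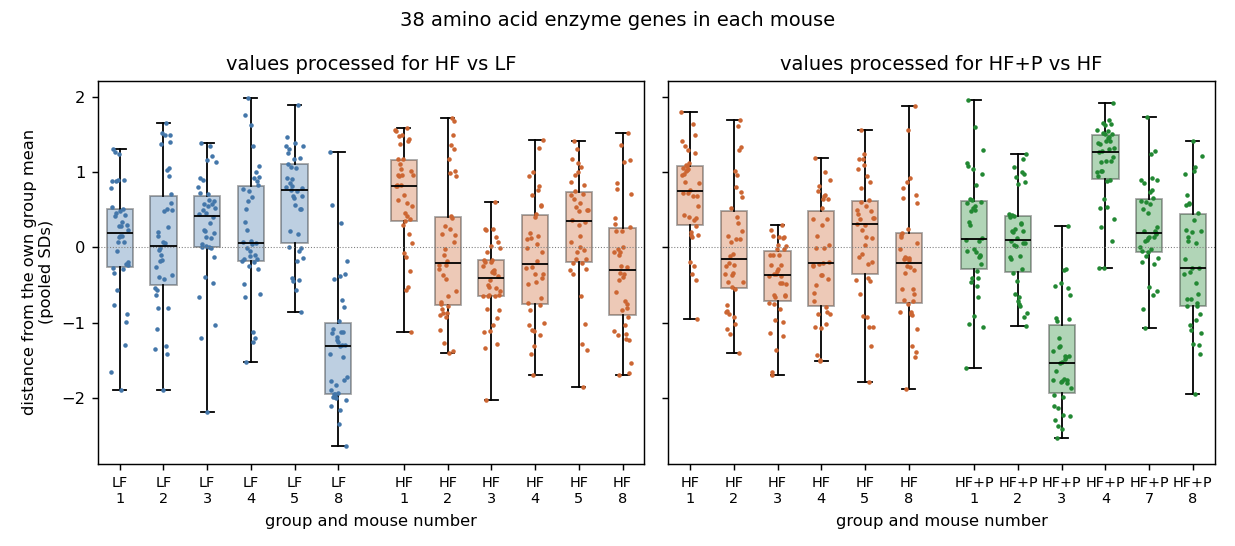
Distance of the 38 member genes from their own group's mean in pooled SDs (vertical axis) for each mouse (horizontal axis, group and mouse number), on the left in the values of LF and HF and on the right in those of HF and HF+P. Points are genes, boxes span the quartiles with the median as a line, and whiskers reach the extremes. LF mouse 8 and HF+P mouse 3 sit low, with medians of -1.30 and -1.53, and HF+P mouse 4 sits high, with a median of 1.27.

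The promoters of 2 members are shown, that of Sardh because it was the member called between HF and LF livers, and that of Hgd because it stood, like Kynu, among the 8 largest differences of both comparisons. The windows hold the 250 bases before the gene's start in RefSeq's mouse assembly GRCm38.p6, read on the gene's strand, and capitals mark matches to 3 motifs searched on both strands.
Sardh promoter, chr2:27247304-27247553, minus strand: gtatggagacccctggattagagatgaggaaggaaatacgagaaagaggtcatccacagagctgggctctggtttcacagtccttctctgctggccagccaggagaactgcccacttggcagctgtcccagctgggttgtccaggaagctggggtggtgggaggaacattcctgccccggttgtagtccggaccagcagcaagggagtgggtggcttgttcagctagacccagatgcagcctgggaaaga
Hgd promoter, chr16:37579903-37580152, plus strand: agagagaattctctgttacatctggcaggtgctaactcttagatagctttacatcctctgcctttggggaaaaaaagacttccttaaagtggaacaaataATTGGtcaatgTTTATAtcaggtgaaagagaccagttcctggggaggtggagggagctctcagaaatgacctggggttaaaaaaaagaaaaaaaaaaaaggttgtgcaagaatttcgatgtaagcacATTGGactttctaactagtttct
The motifs were the letters TATAAA of the TATA box, the letters CCAAT of the CAAT box, and the letters TGACG from the core of the site of cyclic AMP response factors. No match marked here overlaps another. The window of Sardh held no match. In that of Hgd, TATAAA stood on the opposite strand 139 to 134 bases before the start, and CCAAT stood on the opposite strand at 150 to 146 and at 23 to 19 bases. Of the 33 windows found for 30 members, TATAAA was in 3, CCAAT in 16 and TGACG in 3. Among 32851 mouse windows of this length the shares were 12.4%, 33.8% and 17.8%.

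Livers of HF and LF mice were compared for the effect of the fat load. Of the 38 members, 1 was called at an adjusted p under 0.05 (limma, adjusted over all 18194 genes, 332 or 1.82% of which were called, 0.682% higher and 1.14% lower): Sardh, the mitochondrial enzyme that oxidises sarcosine to glycine, rose in HF livers by 2.88 pooled SDs (95% interval 1.23 to 4.47, adjusted p = 0.025, n = 6 per group). The other 37 members did not pass. On average 16 members were higher and 22 lower in HF livers, beside 50.7% of all genes higher, with a median of -0.469 pooled SDs against 0.0114 for all genes; with each array centred on its own median, 5 were higher and 33 lower. At an unadjusted limma p under 0.05 there were 15 members, 5 higher and 10 lower, beside 15.2% of all genes (6.51% higher, 8.68% lower) and 22.2% of the genes above the median level, where all members lie (8.19% higher, 14.0% lower). Scaling turned the calls. After centring 29 members were called, all lower, beside 16089 of all 18194 genes called in either direction. After quantile normalisation, which gave values for 16 members, 1 was called, Gldc, lower, beside 3345 of all genes.

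Without LF mouse 8 the sign of 1 member turned, that of Prodh, and the median of the members was -1.01 pooled SDs. At an unadjusted limma p under 0.05 there were 23 members, 18 of them lower. At the adjusted threshold 0 were called, beside 197 of all genes. LF mouse 8 was singled out by its low position in these same members, so a move to lower values without it was built in. The share of all genes at the unadjusted p is not given here for this fit. The median level of the HF columns was 3.36e-05 above that of the LF columns, and 23 members differed between the groups by less than this.

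**Figure D2:**
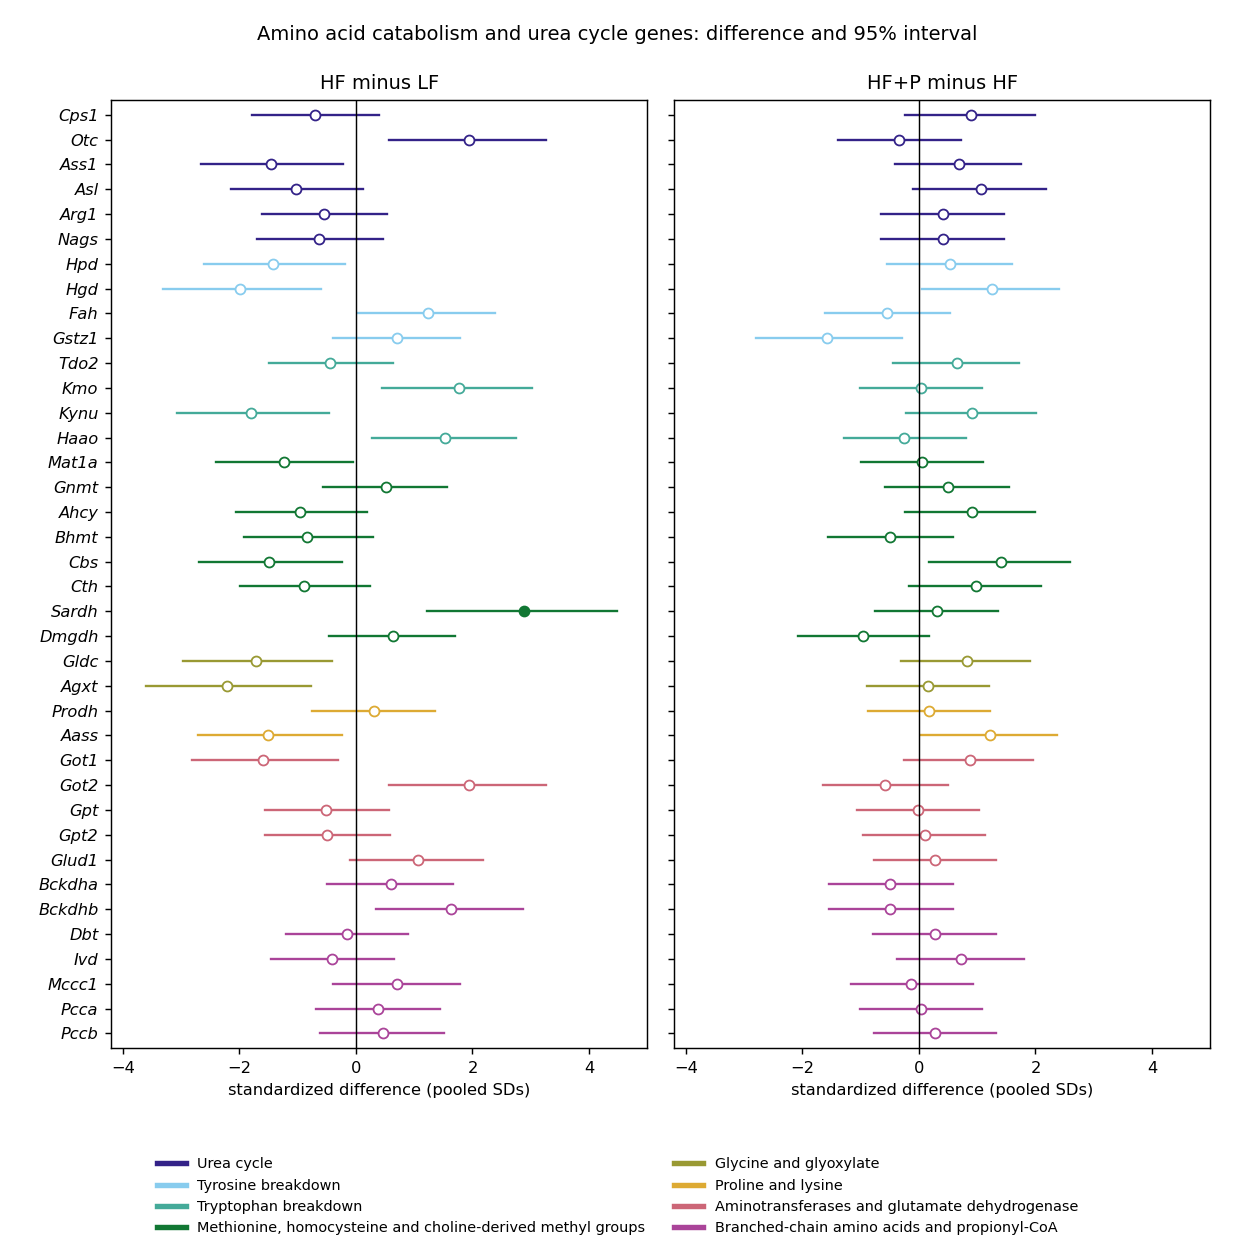
Standardized difference (horizontal axis, in pooled SDs) with its 95% interval for the 38 members (vertical axis), HF minus LF on the left and HF+P minus HF on the right, 6 mice per group. Filled points passed an adjusted p under 0.05, open points did not, and colours mark pathways. Sardh at 2.88 is the filled point; the values run from -2.21 (Agxt) to 2.88 on the left and from -1.57 (Gstz1) to 1.41 (Cbs) on the right.

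In the urea cycle, 0 of 6 genes were called; 5 were lower and 1 higher in HF livers on average, counts that centring on array medians left as they were, while quantile normalisation turned Nags to 1.02. Otc, ornithine transcarbamylase, which joins ornithine and carbamoyl phosphate in the mitochondrion, had the largest difference of the cycle. Its LF mice lay between -0.86 and 1.40 SDs of their mean (median -0.19) and its HF mice between 0.44 and 3.79 (median 2.33). The groups overlapped: 4 of 6 HF mice lay above every LF mouse. The difference was 1.94 pooled SDs (0.57 to 3.26, adjusted p = 0.0926). All 3 probe sets of Otc had the same sign, from 0.65 to 1.94. Ass1 and Asl, which build and split argininosuccinate in the cytosol, had differences of -1.46 and -1.03. Ass1, read by 1 probe set alone at a level close to the median of all genes, also had the widest spread of all members, with a pooled SD of 0.00823. The other 3 were Cps1, which makes carbamoyl phosphate and is the entry enzyme of the cycle, at -0.71, Nags, which makes its activator N-acetylglutamate, at -0.63, and Arg1, the arginase that releases urea, at -0.55.

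In tyrosine breakdown 0 of 4 genes were called. On average Hpd and Hgd were lower and Gstz1 and Fah higher in the values as deposited, while all 4 were lower after centring on array medians. Hgd, the dioxygenase that opens the ring of homogentisate, ranged from -1.31 to 1.34 in LF mice (median 0.24) and from -3.19 to -0.56 in HF mice (median -2.23). Here 5 of 6 HF mice lay below every LF mouse, and HF mouse 1 was the one within the LF range. The difference was -1.99 pooled SDs (-3.31 to -0.61, adjusted p = 0.0877), and its second probe set had -0.61. Hpd, which makes homogentisate, stood at -1.43. Gstz1, the maleylacetoacetate isomerase, stood at 0.71 and Fah, fumarylacetoacetate hydrolase, the last enzyme of the route, at 1.23. Centred on array medians these became -1.99 for Gstz1 and -2.05 for Fah.

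In tryptophan breakdown along the kynurenine route, 0 of 4 genes were called, with 2 on either side of 0. Kmo, kynurenine monooxygenase of the outer mitochondrial membrane, lay between -0.70 and 1.03 in LF mice (median -0.01) and between 0.06 and 3.63 in HF mice (median 1.95). All HF mice but mouse 5 lay above every LF mouse. The difference was 1.76 (0.44 to 3.03, limma adjusted p = 0.124). Without HF mouse 5 it was 2.58 with a limma adjusted p of 0.0461, in a fit that called 357 of all genes. HF mouse 5 was the lowest HF mouse in Kmo, so a larger difference without it was built in. Kynu, kynureninase, which cleaves alanine off the kynurenines, went the other way. Its LF mice ranged from -1.20 to 1.22 (median 0.11) and its HF mice from -3.10 to -0.53 (median -2.02), with 5 of 6 HF mice below every LF mouse. The difference was -1.79 (-3.07 to -0.46, adjusted p = 0.122), but -0.11 in the dimmer probe set of the gene. Haao, which makes the precursor of quinolinate, stood at 1.53 and turned to -1.67 after centring, and Tdo2, the tryptophan dioxygenase that opens the route, stood at -0.44.

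The methyl group enzymes held the called member. For Sardh the LF mice lay between -1.02 and 1.09 SDs of their mean (median -0.16) and the HF mice between 1.59 and 4.54 (median 3.38). The groups did not overlap, which held for 404 or 2.22% of all genes and for 1 of the 38 members. The deposited level was 11.9 in both groups, with a difference of 5.15e-05. The rank of Sardh within the array was the same on all 12 arrays, so quantile normalisation gave no value for Sardh. The second probe set of Sardh stood at 1.85 with an adjusted p of 0.142 over all probe sets, against 0.0381 for the main one. The call was lost when the probe sets were averaged (2.08, adjusted p = 0.0759), when arrays were centred on their medians (1.01, adjusted p = 0.0868), and when LF mouse 1, 3, 5 or 8 or HF mouse 1, 2, 3 or 4 was left out (2.66 to 2.82, adjusted p 0.0507 to 0.0644).

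Dmgdh, the dehydrogenase that makes the sarcosine used by Sardh, stood at 0.64, with LF mice from -1.83 to 1.98 and HF mice inside that range, from 0.16 to 1.73. Gnmt, which makes sarcosine by methylating glycine and so consumes S-adenosylmethionine, stood at 0.51 and at -1.78 after centring. Quantile normalisation turned Dmgdh to -0.84. Lower on average were Cbs (-1.48) and Cth (-0.89), which turn homocysteine into cysteine, Mat1a (-1.24), which makes S-adenosylmethionine, Ahcy (-0.96), which splits S-adenosylhomocysteine, and Bhmt (-0.83), which remethylates homocysteine with betaine. None of these passed. Both probe sets of Cbs stood near each other, at -1.48 and -1.65.

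Both glycine and glyoxylate genes were lower on average, and neither passed. Agxt, the aminotransferase that detoxifies glyoxylate to glycine, ranged from -1.65 to 1.26 in LF mice (median 0.12) and from -3.51 to -0.86 in HF mice (median -2.52). All HF mice but mouse 1 lay below every LF mouse. The difference of -2.21 (-3.60 to -0.77) had an adjusted p of 0.0618, and 0.0374 when the genes above the median level alone were tested. Gldc, the decarboxylase of the glycine cleavage system, ranged from -1.19 to 0.90 in LF mice (median -0.07) and from -3.55 to -0.36 in HF mice (median -2.19). Here 4 of 6 HF mice lay below every LF mouse, and the difference was -1.71 (-2.96 to -0.40, adjusted p = 0.135). Gldc had a wide spread, with a pooled SD of 0.00489, and it was the member called after quantile normalisation (-1.72, adjusted p = 0.0444).

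**Figure D3:**
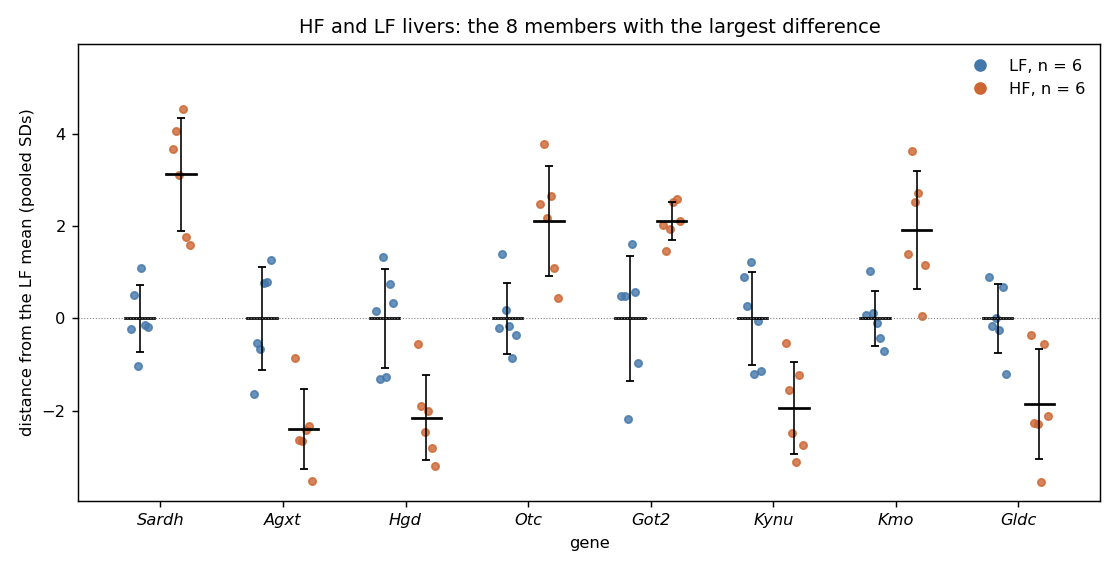
Distance from the LF mean in pooled SDs (vertical axis) of each LF and HF mouse for the 8 members with the largest standardized difference (horizontal axis). Points are mice, 6 per group, the black line is the group mean and the error bar its SD. The groups are separate for Sardh, where HF mice start at 1.59 and LF mice end at 1.09, and overlap for the other 7.

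In proline and lysine breakdown, Aass, the bifunctional enzyme that starts lysine breakdown, stood at -1.50 and Prodh, proline dehydrogenase, at 0.31. Without LF mouse 8 these were -1.90 and -0.41, so the sign of Prodh rests on that mouse, which lay at -2.64. None of the 5 aminotransferase and glutamate dehydrogenase genes was called. Got2, the mitochondrial aspartate aminotransferase, ranged from -2.19 to 1.62 in LF mice (median 0.49) and from 1.46 to 2.59 in HF mice (median 2.07), and 5 of 6 HF mice lay above every LF mouse. Its standardized difference of 1.94 (0.57 to 3.25) had an adjusted p of 0.732, since its pooled SD of 1.23e-07 was the smallest of all members and limma widens such SDs. The other 3 probe sets of Got2 stood between -0.62 and -0.06, and centring turned the main one to -2.04. Got1, the cytosolic counterpart, stood at -1.59, Gpt and Gpt2, the alanine aminotransferases, at -0.51 and -0.50, and Glud1, glutamate dehydrogenase, at 1.06, which became -0.62 after centring.

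Of the 7 branched-chain and propionyl-CoA genes, 0 were called; 5 were higher on average, all of which turned negative after centring on array medians. Bckdhb, a subunit of the branched-chain ketoacid dehydrogenase, had the largest difference at 1.63 (0.34 to 2.86), with its partner subunits Bckdha at 0.60 and Dbt at -0.16. Mccc1, a subunit of the leucine pathway carboxylase, stood at 0.71, Ivd, isovaleryl-CoA dehydrogenase of the same pathway, at -0.41, and the propionyl-CoA carboxylase subunits Pcca and Pccb at 0.39 and 0.46. The genes of this group were narrow in their values, with pooled SDs from 4.34e-07 (Pccb) to 2.00e-05 (Dbt).

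Livers of HF+P and HF mice were compared for the effect of eating the propagules. Of the 38 members 0 were called (limma, adjusted p under 0.05; 1 of 18194 genes or 0.00550% was), and 0 were called under any other setting that was run. At an unadjusted limma p under 0.05 there were 4 members, Cbs, Hgd and Aass higher and Gstz1 lower, beside 7.17% of all genes (4.24% higher, 2.93% lower) and 8.27% of the genes above the median level (6.20% higher, 2.07% lower). On average 27 members were higher and 11 lower in HF+P livers, beside 51.5% of all genes higher, or 32 and 6 after centring on array medians, with a median of 0.283 pooled SDs against 0.0217 for all genes and 0.150 for the genes above the median level. No member's groups were separate, against 68 or 0.374% of all genes.

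These values rest on single HF+P mice. Without HF+P mouse 3 the median was 0.667, with 29 members higher, 9 lower and 12 at an unadjusted limma p under 0.05, 11 of them higher. Without HF+P mouse 4 it was 0.0540, with 20 higher and 18 lower. Both mice were singled out by their positions in these same members, so moves in these directions were built in. The share of all genes at the unadjusted p is not given here for the fit without mouse 3. Leaving out mouse 3 turned the sign of 2 members, Gpt from -0.01 to 0.74 and Mccc1 from -0.13 to 0.23. Leaving out mouse 4 turned 7 that lay near 0, to -0.03 for Agxt, -0.07 for Gpt2, -0.21 for Kmo, -0.11 for Mat1a, -0.27 for Pcca, -0.09 for Pccb and -0.05 for Prodh. In Bhmt, Mat1a and Cps1, where mouse 3 lay far below the other HF+P mice, the differences without it were -0.06, 0.47 and 1.79.

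In the urea cycle 5 of 6 genes were higher on average and 1 lower, and 0 passed. Asl had the largest difference. Its HF mice lay between -0.84 and 1.05 SDs of their mean (median -0.02) and its HF+P mice between -1.14 and 2.42 (median 1.47), with 4 of 6 HF+P mice above every HF mouse and mouse 3 below every one. The difference was 1.07 (-0.10 to 2.18, adjusted p = 0.703), and 2.30 without mouse 3. Cps1 stood at 0.89, Ass1 at 0.68, Arg1 and Nags at 0.42 each, and Otc at -0.34, although the 3 probe sets of Otc ran from -0.34 to 0.82.

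Tyrosine breakdown held the lowest value of all members, that of Gstz1. Gstz1 ranged from -0.93 to 1.01 in HF mice (median -0.18) and from -3.69 to -0.46 in HF+P mice (median -1.47), and 4 of the 6 in HF+P were lower than every HF mouse. The difference was -1.57 (-2.79 to -0.30, adjusted p = 0.601). The same HF mice had an SD of 3.93e-07 for Gstz1 in the values processed with LF and of 1.44e-06 in those processed with HF+P. Hgd ranged from -0.86 to 1.64 in HF mice (median -0.20) and from -0.40 to 2.81 in HF+P mice (median 1.36). HF mouse 1 was the highest HF mouse, and 3 of 6 HF+P mice lay above it. The difference was 1.25 (0.05 to 2.40, adjusted p = 0.675). Hpd and Fah stood at 0.54 and -0.55, and Fah became 0.45 after centring.

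In the kynurenine route 0 of 4 genes passed. Kynu ranged from -1.02 to 1.25 in HF mice (median -0.07) and from -0.47 to 2.40 in HF+P mice (median 0.81), and 2 of 6 HF+P mice lay above every HF mouse. Its difference was 0.91 (-0.23 to 2.01, adjusted p = 0.741), and quantile normalisation turned it to -0.53. Tdo2 stood at 0.65, Kmo at 0.04 and Haao at -0.25.

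Among the methyl group and transsulfuration enzymes, Cbs, which condenses homocysteine with serine, had the largest difference of all members in this direction. Its HF mice lay between -1.43 and 1.56 (median -0.13) and its HF+P mice between 0.46 and 2.59 (median 1.70), with 4 of 6 HF+P mice above every HF mouse. The difference was 1.41 (0.18 to 2.60, adjusted p = 0.63), and the second probe set of Cbs stood at 1.58. Cth, which follows Cbs on the way to cysteine, ranged from -0.89 to 1.08 in HF mice (median -0.22) and from -1.31 to 2.08 in HF+P mice (median 1.52). Mouse 3 was below every HF mouse and 4 other HF+P mice were above every one. The difference was 0.98 (-0.16 to 2.09, adjusted p = 0.731), and 2.35 without mouse 3. Dmgdh went the other way, from -0.66 to 1.04 in HF mice (median -0.12) and from -2.25 to 0.69 in HF+P mice (median -1.56). The difference was -0.96 (-2.07 to 0.18, adjusted p = 0.734), with 4 of the 6 in HF+P lower than all HF mice. Sardh stood at 0.31 with overlapping groups (-0.75 to 1.35, adjusted p = 0.928) and at 0.31 in its other probe set. Ahcy stood at 0.90, Gnmt at 0.49, Mat1a at 0.06 and Bhmt at -0.50.

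**Figure D4:**
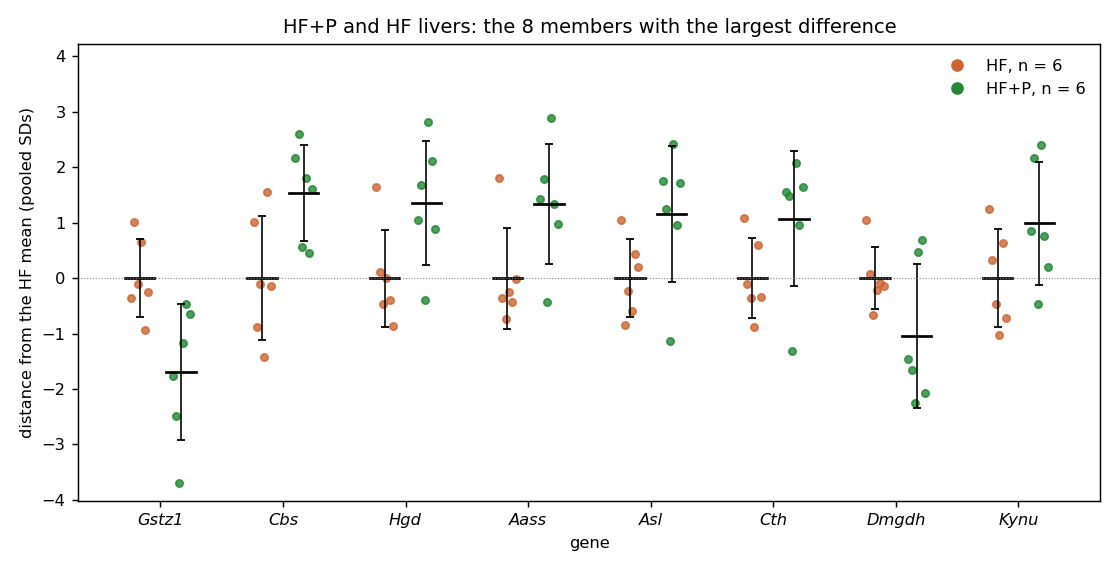
Distance from the HF mean in pooled SDs (vertical axis) of each HF and HF+P mouse for the 8 members with the largest standardized difference (horizontal axis). Points are mice, 6 per group, the black line is the group mean and the error bar its SD. The groups overlap for all 8; the lowest HF+P point of Asl (-1.14) and of Cth (-1.31) is mouse 3.

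For lysine, Aass ranged from -0.73 to 1.80 in HF mice (median -0.30) and from -0.43 to 2.89 in HF+P mice (median 1.38). HF mouse 1 lay far above the other HF mice, and 1 HF+P mouse lay above it. The difference was 1.23 (0.03 to 2.37, adjusted p = 0.67). Prodh stood at 0.18, with HF mice from -0.63 to 0.39 and HF+P mice from -2.05 to 1.39. Gldc stood at 0.82 and Agxt at 0.16. Among the aminotransferases Got1 stood at 0.87, Gpt2 at 0.10, Gpt at -0.01 (0.74 without HF+P mouse 3) and Got2 at -0.58, and Glud1 stood at 0.28. The 7 branched-chain and propionyl-CoA genes lay between -0.49 (Bckdhb) and 0.73 (Ivd), and 0 passed. Centring on array medians turned Got2 to 0.46 and Bckdhb to 0.45.

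Both comparisons hold the same HF mice, whose mean enters them with opposite signs, so the values of the 8 members with the largest HF minus LF difference are given side by side without a joint test. Sardh was at 2.88 for HF minus LF and 0.31 for HF+P minus HF, and Kmo at 1.76 and 0.04. Got2 was at 1.94 and -0.58. Agxt was at -2.21 for HF minus LF and 0.16 for HF+P minus HF, Otc at 1.94 and -0.34, Hgd at -1.99 and 1.25, Kynu at -1.79 and 0.91, and Gldc at -1.71 and 0.82.

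The members also differed in how widely their deposited values were spread. In HF and LF 8 members had a pooled SD of at least 1e-04, reached by 5.53% of all genes: Asl, Ass1, Cbs, Dmgdh, Gldc, Got1, Kynu and Prodh. Of these 6 were lower and 2 higher in HF livers, with a median of -1.47, while the 1007 such genes had a median of 0.304 and 42.6% of them were lower. In HF+P and HF 12 members passed this width, against 4.87% of all genes, 10 higher and 2 lower, with a median of 0.751 against -0.137 for the 886 such genes. At the other end 5 members had a pooled SD below 1e-06 in each value set. For 22 members in HF and LF, and 25 in HF+P and HF, the rank within the array was the same on all 12 arrays.

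**Figure D5:**
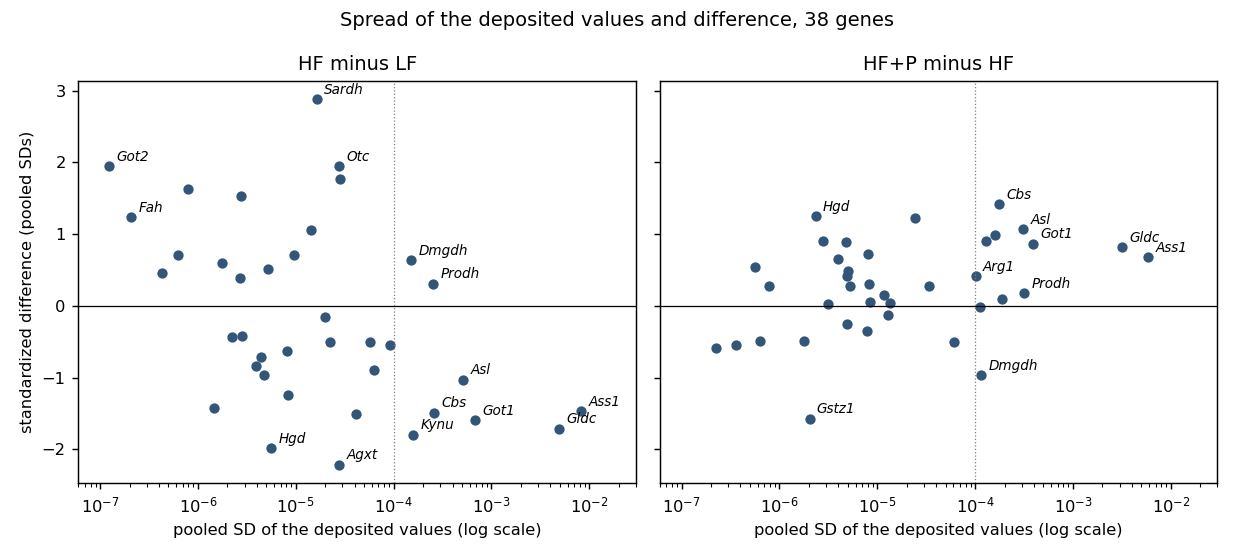
Standardized difference (vertical axis, in pooled SDs) against the pooled SD of the deposited values (horizontal axis, log scale) for the 38 members, HF minus LF on the left and HF+P minus HF on the right, with some genes named and a dotted line at 1e-04. Right of the line lie 8 members on the left panel, 6 of them below 0, and 12 on the right panel, 10 of them above 0.

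Of the 13 members with several probe sets, all probe sets had the same sign in 10 for HF minus LF, the exceptions being Got2, Ivd and Pcca, and in 8 for HF+P minus HF, the exceptions being Gpt, Gpt2, Mccc1, Otc and Pcca. Over all 57 probe sets the medians were -0.414 and 0.284, and 1 and 0 probe sets of the members were called, beside 0.672% and 0.00222% of all probe sets.

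The mice that stood apart did so across most pathways of the members. LF mouse 8 was the lowest LF mouse in 5 of 6 urea cycle genes, 6 of 8 methyl group genes and 5 of 7 branched-chain genes, but in 1 of 4 tyrosine genes. HF+P mouse 3 was the lowest in all 4 tyrosine genes, all 5 aminotransferase and glutamate dehydrogenase genes and 3 of 6 urea cycle genes. HF+P mouse 4 was the highest in 6 of 8 methyl group genes. HF mouse 1 was the highest HF mouse in 17 members (44.7%, against 13.5% of all genes). The hepatocyte markers outside the list had medians of -0.19 in LF mouse 8, 0.06 in HF+P mouse 3 and 0.15 in HF+P mouse 4. Their pooled SDs were small, from 5.16e-09 to 1.58e-05 in HF and LF and from 1.13e-08 to 1.38e-05 in HF+P and HF. For the narrowest markers a position in SDs rests on a very small difference. Whether other hepatocyte genes share the positions of the members was not tested. Some genes stand in more than 1 of the related lists described below. In these lists LF mouse 8 was also low by its median in periportal genes (-0.65), transporters (-0.58) and regulators (-0.58). It was the lowest LF mouse in 2 of 11 periportal genes (18.2%), 5 of 18 transporters (27.8%) and 6 of 15 regulators (40%), against 15.0% of all genes. Its median was -0.28 in the other enzymes of amino acid breakdown and 0.43 in pericentral genes. HF+P mouse 3 was also high in the 14 markers of Kupffer cells and macrophages (median 1.06), as was HF mouse 3 (median 1.89), while HF mouse 1 was low in them (median -0.97). The LF mice differed from this: LF mouse 3 was high in these markers (median 1.61) with a member median of 0.42. LF mouse 8, low in the members, stood at 0.03 in these markers. The part of these cells in the results was not tested.

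Some marker lists of other cell types also differed between the groups on average. Of 14 Kupffer cell and macrophage markers 12 were higher in HF than in LF livers on average (median 0.64), with summed levels of 124.08 to 124.18 in HF and 124.08 to 124.21 in LF mice, and 1 was higher in HF+P than in HF livers (median -0.64). After centring on array medians 12 and 1 were higher. Of 11 lymphocyte markers 11 and 2 were higher (medians 0.81 and -0.47), but 3 and 3 after centring. Of these 11, 4 lay below the median of the array columns in HF and LF, and 7 in HF+P and HF. Of 6 neutrophil markers 5 and 1 were higher (medians 0.58 and -0.36), but 1 and 3 after centring. In both value sets 4 of these 6 lay below the median of the array columns. Of 10 endothelial markers 3 and 6 were higher (medians -0.65 and 0.20), or 1 and 7 after centring. Tek, the angiopoietin receptor, fell by 2.53 pooled SDs in HF livers (limma adjusted p = 0.0402). At the other end of this list Kdr stood at 1.97 for HF minus LF and was not called. The call of Tek was lost when any single mouse other than LF mouse 1 or HF mouse 2 was left out (adjusted p 0.0576 to 0.0868). With the values as deposited and each gene read by its one chosen probe set, Tek was the marker called in these 4 lists. Quantile normalisation called 4 endothelial markers and 1 neutrophil marker lower in HF livers, beside 3345 of all genes called in either direction. Centring called 8 endothelial, 7 lymphocyte and 4 neutrophil markers lower and 1 Kupffer cell marker higher. It called 16089 of all 18194 genes in either direction. As deposited, the remaining lists of other cell types held 0 called markers. For HF minus LF their medians were 0.21 (stellate cell and fibroblast), -0.14 (bile duct), 0.13 (red blood cell), 0.47 (pancreatic acinar) and -0.07 (fat cell). For HF+P minus HF they were -0.08, 0.09, -0.94, -0.37 and 0.01, in that order. The part of these cells in the results was not tested.

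Other genes of amino acid metabolism were read from lists beside the members. Of 49 measured enzymes of amino acid breakdown outside the members, 3 were called between HF and LF livers. Nit2, the omega-amidase that works after glutamine transamination, rose by 2.86 pooled SDs (adjusted p = 0.0263). Acad8, the isobutyryl-CoA dehydrogenase of valine breakdown, fell by 3.12 (adjusted p = 0.0162). Shmt2, the mitochondrial serine hydroxymethyltransferase, rose by 2.69 (adjusted p = 0.0340), a value that became -0.12 after centring on array medians and a call that was lost when LF mouse 1, 3, 5 or 8 or HF mouse 1, 2, 3 or 4 was left out (adjusted p 0.0584 to 0.0811). Without LF mouse 1, 3 or 5 or HF mouse 1, 2 or 4 the call of Nit2 was lost (adjusted p 0.0510 to 0.0682). None of these 3 was called after quantile normalisation, which gave 1.06 for Nit2 (adjusted p = 0.176), -0.84 for Acad8 (adjusted p = 0.277) and 0.53 for Shmt2 (adjusted p = 0.498). In this list 30 genes were higher and 19 lower, with a median of 0.31, but 8 were higher and 41 lower after centring. Centring called 3 of the 49 higher and 32 lower, beside 16089 of all 18194 genes called in either direction. For HF+P minus HF 0 of the 49 were called, 32 were higher, and the values ran from -1.59 (Nit2) to 2.53 (Acad8).

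Of 18 transporters of amino acids and urea cycle intermediates 0 were called in either comparison. After centring 12 were called lower and 2 higher in HF than in LF livers, beside 16089 of all 18194 genes called in either direction. Slc38a3, a glutamine transporter of the hepatocyte membrane, was highest at 1.89 and Slc25a12, a mitochondrial aspartate and glutamate carrier, lowest at -1.60 for HF minus LF. For HF+P minus HF these ends were Slc25a15, the mitochondrial ornithine carrier, at 1.42, and Aqp9, a channel for glycerol and urea, at -0.85. Of 15 measured regulators 0 were called in either comparison. After centring 7 were called lower in HF than in LF livers, beside the same 16089 of all genes. Atf4, which drives the response to amino acid shortage, stood at 1.81 and turned to -0.38 after centring, and Klf15, a glucocorticoid-induced activator of amino acid breakdown, stood at -1.21. In HF+P minus HF the ends were Hnf4a at 0.96 and Creb3l3 at -0.60.

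The zones of the liver lobule were read because the urea cycle is periportal. Of 11 measured periportal genes 1 was called: Pigr, the immunoglobulin receptor, rose in HF livers by 3.69, a value that became 0.60 after quantile normalisation (adjusted p = 0.449). Among 13 genes of the pericentral zone Gulo (vitamin C synthesis) rose by 2.97 and Rnase4 by 2.36, the latter with an adjusted p of 0.0490 and a call that was lost when any single mouse other than LF mouse 1 was left out, when probe sets were averaged or tested singly, and with trend and robust settings (adjusted p 0.0507 to 0.117). The call of Gulo was lost without LF mouse 5 (2.77) or HF mouse 2 (2.75). On average 6 periportal and 11 pericentral genes were higher in HF livers, with medians of 0.01 and 0.68, and 3 and 7 after centring. Centring called 2 periportal genes higher and 8 lower and 4 pericentral genes higher and 2 lower. It called 16089 of all 18194 genes in either direction. For HF+P minus HF, 0 of either list were called, with medians of 0.08 and -0.28.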

How the data were processed

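Liver RNA of 18 mice was measured on Affymetrix arrays (biotinylated RNA from 200 ng total RNA, per the labels' protocols). The table deposited by the authors holds 24 columns of values for 45101 probe sets, handled as log2 because they lie between 5.36 and 15.0. The submitters' processing notes name R 2.7.2. How the values were summarised and normalised, and their log base, is not given in the sources used here. Probe sets with 1 symbol in the platform annotation (34958; 932 list several, 9211 none) were used, and 34754 of them matched RefSeq identifiers of GRCm38.p6. Each of 18194 genes was represented by its brightest probe set. A probe set that names Ass1 and a further gene was left out.

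The groups were compared in limma 3.58.1 (R 4.3.3; lmFit, eBayes, two-sided, Benjamini-Hochberg over 18194 genes, threshold 0.05), without covariates, and the script was tested on simulated data. The 6 arrays per group limit the precision. The labels number the mice within each group, 1 array each, and p-values measure the spread between these arrays. The members and gene lists were chosen with earlier results of these data known. Values per mouse are given for called members and for the 8 largest standardized differences of each comparison. From each related list up to 3 called genes per direction are named or, with none called, the largest in each direction. Alternatives were quantile normalisation, median centring, other probe set rules, brighter genes alone, trend and robust settings, array weights, a looser threshold, a replicate block on mouse number, and the fit without each mouse in turn.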

Additional observations from a re-analysis of the deposited data

Results flagged for a closer look

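In 14 of 152 groups of 6 values (9.21%) a single mouse lay far from the other 5. Its gap, as a share of the group's range, was above Dixon's limit for 6 values. Chance gives about 1 in 20 for independent groups. These groups are not independent, since the same mice enter every member and the HF mice enter both value sets. The 1 in 20 is therefore no reference for this count, and the share over all genes is not given here. Values are distances from the reference group's mean in pooled SDs. In HF and LF livers LF mouse 8 was far below the other LF mice in Prodh (-2.64), Gpt2 (-2.15), Pccb (-2.03), Bhmt (-1.99) and Dbt (-1.95). HF mouse 1 was far above the other HF mice in Dmgdh (1.73) and in Aass (-0.0697, where the next HF mouse lay at -1.69), and HF mouse 2 in Gstz1 (1.95). In HF+P and HF livers HF+P mouse 3 was far below the other HF+P mice in Bhmt (-3.07), Mat1a (-1.74), Cth (-1.31) and Cps1 (-1.17). HF mouse 1 was far above the other HF mice in Aass (1.80) and HF mouse 4 in Got2 (0.516).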

How the results depend on the processing

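Between HF and LF livers 1 member was called; 0 were called when probe sets were averaged, 2 among the brighter genes (Agxt, Sardh), 4 at an adjusted p under 0.10 (Agxt, Hgd, Otc, Sardh), 29 after median centring, where the median moved to -1.76, and 0 to 2 when 1 mouse was left out, with medians from -1.01 to -0.289. Quantile normalisation, every probe set, trend and robust settings, and array weights gave 1 each. Over all genes 332 were called (124 higher, 208 lower). There were 3345 after quantile normalisation, 16089 after median centring, 502 of the brighter genes, 679 at an adjusted p under 0.10, and 131 to 357 when 1 mouse was left out. Median centring reversed Fah (-2.05), Gstz1 (-1.99), Haao (-1.67), Gnmt (-1.78), Got2 (-2.04), Bckdha (-1.98), Bckdhb (-1.94), Mccc1 (-1.22), Pcca (-1.94), Pccb (-2.02), Shmt2 (-0.12), Aqp9 (-1.30) and Creb3l3 (-1.98); these shifts follow from the column median, which is 3.36e-05 higher in HF. For HF+P and HF 0 members were called under every setting (4 at an unadjusted p under 0.05), with medians from 0.0540 to 0.667 when 1 mouse was left out. The count over all genes was 1, and 0 after quantile normalisation and among the brighter genes, and 1 to 2 when 1 mouse was left out. Quantile normalisation gave no value for the 22 and 25 members whose rank was the same on every array.

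The labels do not say that mouse numbers pair the groups. The correlations of same-numbered mice were low (-0.132 to 0.137 in 6 pairs of HF and LF, 0.0456 to 0.201 in 5 pairs of HF+P and HF). Yet 4 of 6 and 2 of 5 mice correlated best with their own number, among 6 mice to match. These values do not settle whether the groups are paired. With mouse number as a replicate block 2 members were called between HF and LF (Otc, Sardh; median -0.463; 261 genes in all) and 0 between HF+P and HF (median 0.310; 0 genes in all). The block also left Acad8 (adjusted p 0.0655), Shmt2 (0.0535), Rnase4 (0.103) and Tek (0.0866) above the threshold.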
